A study of Mus musculus with 6 samples.

Results

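The collagen and laminin genes are the 55 of 24421 gene symbols in the expression table whose names are those of a collagen chain (Col, a type number, a and a chain number, 44 genes) or of a laminin alpha, beta or gamma chain (Lama, Lamb or Lamc and a number, 11 genes). Their transcripts were quantified by RNA-seq in 3 mouse lines of pancreatic ductal adenocarcinoma, 2838c3, 6419c5 and 6499c4, obtained from the Stanger Lab and used at passages 15-20. The cells grew in DMEM with serum, and each line was kept for 16 hours with vehicle (the solvent DMSO) or with 250 nM G-1, which activates GPER, a G protein-coupled receptor for oestrogen, before RNA was taken. Each line gave 1 vehicle and 1 G-1 library, so a treatment has 3 libraries, 1 from each line, and a line has 2. The labels give no genotype of the lines and do not say whether the libraries came from separate cultures, so p-values measure only the spread between these 6 libraries.

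Collagens are secreted as triple helices of 3 chains. Fibrillar collagens such as types I, III and V build the fibrils of connective tissue and of the dense stroma of pancreatic tumours, where fibroblasts and stellate cells are their main source. Type IV collagen forms the network of the basement membrane, the sheet on which epithelial cells rest, together with laminins, which are trimers of 1 alpha, 1 beta and 1 gamma chain. Laminins with the Lama3 and Lamb3 chains anchor epithelia, and those with the Lama5 chain are common in adult epithelial basement membranes.

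The values are FPKM, reads per kilobase of gene length scaled for the size of the library, so levels can be set side by side between genes. Reads in genes, recovered from the steps between FPKM values, numbered 5456739 (6419c5, G-1) to 8891599 (2838c3, vehicle), and the collagen and laminin genes took 0.248 to 0.334% of them. Of 8 epithelial markers 7 had a mean of at least 1 FPKM, with summed levels of 3417 to 5960 FPKM in the 6 libraries. Of 10 fibroblast and stellate cell markers, Dcn, Lum, Thy1 and Postn were at 0 in every library and 1, Fbln1, had a mean above 1 FPKM, and the list summed to 13.1 to 21.0 FPKM. The 8 smooth muscle and pericyte markers summed to 229 (vehicle) and 140 (G-1) FPKM in 6419c5 and to 3.3 to 4.1 FPKM in the other lines, with none of the 8 at 0 in all libraries, and Acta2 alone was at 224 and 137 FPKM in 6419c5. The 7 endothelial and 7 leukocyte markers summed to at most 5.25 and 3.38 FPKM and the 5 Schwann and neural markers to at most 7.30 FPKM, with Emcn, Adgre1 and Sox10 among those at 0 throughout. The part of these markers in the differences between lines below was not tested.

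Of the 55 genes, 42 had a read in any library, 22 had reads in all 6, and 13 were at 0 in all 6. Only 9 reached 10 FPKM in a line, among them the collagen chains Col4a1, Col4a2 and Col18a1 and the laminin chains Lama5, Lamb1, Lamb2, Lamb3 and Lamc1. Another 9 reached 1 FPKM in a line, and the rest of those with reads stayed below that. A mean of at least 1 FPKM over the 6 libraries, the level needed to enter the test, was met by 14 of the 55 (25.5%), against 44.0% of all symbols. Of these 14, Col4a5, Col5a1, Col6a1 and Col8a1 were below 1 FPKM in at least 1 line and passed through the lines where they were higher. Counts of calls over the 14 are therefore given as descriptions. No test between lines is given for Col4a5, Col5a1, Col6a1 or Col8a1 where a line compared was below 1 FPKM.

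**Figure D1:**
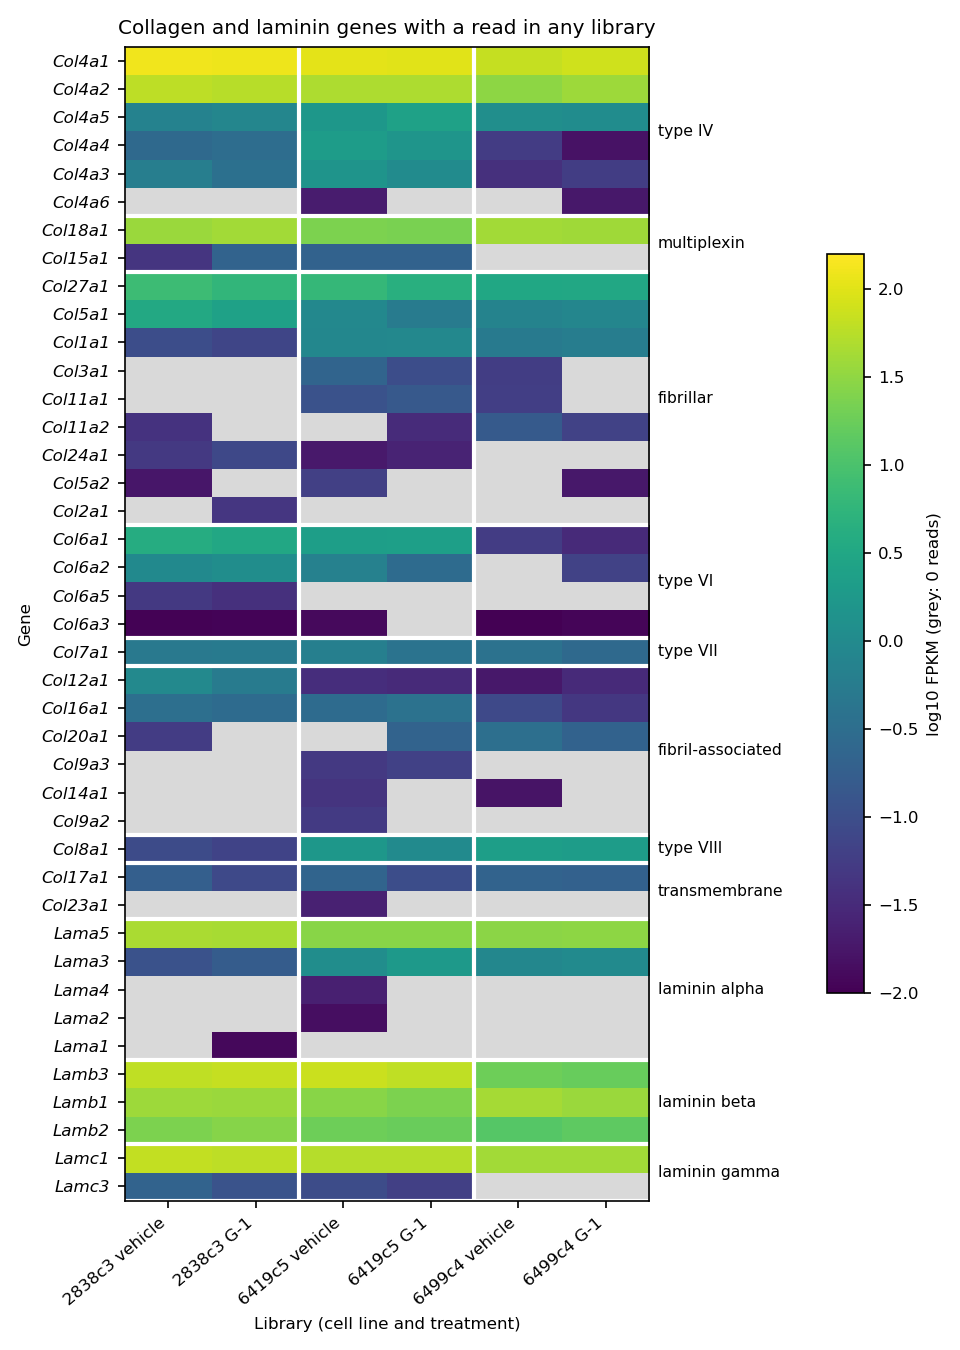
Level of 41 of the 42 collagen and laminin genes with a read in any library, as log10 FPKM by colour, with genes in rows grouped by role and the 6 libraries in columns. Grey stands for 0 reads; the 8 genes drawn that are above 10 FPKM in a line are the brightest rows, 3 of them collagens and 5 laminins.

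The question of which chains each line makes was addressed by comparing the lines in pairs, with limma on log2(FPKM + 1) over the 10748 genes whose mean reached 1 FPKM. Against 2838c3, 6419c5 was higher for 3 of the 14 tested members and lower for 8, where 26.2% of all genes tested were called higher and 25.3% lower. Leaving out single libraries cut the 11 calls to 7 (without 2838c3 vehicle), 6 (without 2838c3 G-1) or 6 (without 6419c5 G-1), while the calls over all genes went from 5533 to 3869, 3881 and 3590. Against 2838c3, 6499c4 was higher for 2 and lower for 9, with 26.6% and 28.9% of all genes called. Against 6419c5, 6499c4 was higher for 2 and lower for 8, with 21.3% and 23.7% of all genes called. The median differences of the 14 were -0.28, -0.66 and -0.44 on the log2 scale in these 3 comparisons, while the medians of all genes tested lay at 0.001, -0.01 and 0.01. In RNA from whole cultures, fewer cells of a type and less RNA per cell cannot be told apart.

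**Figure D2:**
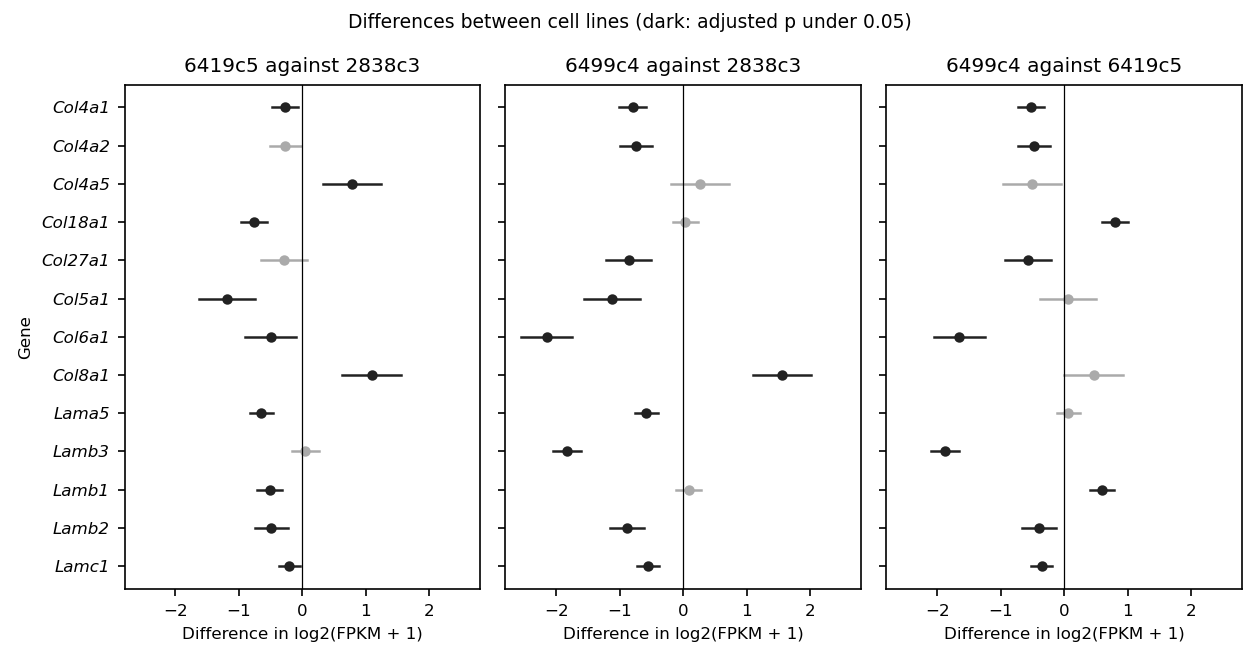
Difference in log2(FPKM + 1) between cell lines for 13 of the 14 tested collagen and laminin genes, with 1 panel per pair of lines; points are limma estimates, bars 95% intervals, and dark symbols mark an adjusted p under 0.05. Lamb3 and Col6a1 lie far to the left for 6499c4 (-1.83 and -2.15 against 2838c3), and Col8a1 to the right for 6419c5 against 2838c3 (1.09). Where Col4a5, Col5a1, Col6a1 or Col8a1 was below 1 FPKM in a line compared, the shade is a description only.

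Type IV collagen was the most abundant collagen in every library. In what follows, a pair of values in a line is vehicle first and G-1 second. Col4a1, a chain of the common type IV trimer, was at 128 and 124 FPKM in 2838c3, 107 and 102 in 6419c5 and, in 6499c4, 66.8 and 78.2. Col4a2, its partner in that trimer, was at 59.5 and 56.8 FPKM in 2838c3, 48.1 and 48.1 in 6419c5 and, in 6499c4, 30.6 and 38.4. Both genes followed the same order of lines with no overlap between lines. Col4a1 was lower in 6499c4 than in 2838c3 with a log2 difference of -0.80 (SE 0.09, adjusted p = 0.000275) and than in 6419c5 with a difference of -0.52 (adjusted p = 0.00283). For Col4a2 these differences were -0.74 (SE 0.10, adjusted p = 0.000808) and -0.48 (adjusted p = 0.00907), the latter not called without either 6419c5 library (-0.41 without vehicle and -0.54 without G-1) or without 6499c4 vehicle (-0.30). Between 6419c5 and 2838c3, Col4a1 differed by -0.27 (adjusted p = 0.0373), a call lost without any 1 of the 4 libraries of these lines (-0.19 to -0.35), with no filter on level and with no variance trend. Col4a2 differed by -0.27 (adjusted p = 0.0655), a difference called without either 6499c4 library and with limma-voom on the recovered reads.

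The ratio of Col4a1 to Col4a2 FPKM lay within 2.03 to 2.22 in the 6 libraries. The genes lie head to head on mouse chromosome 8, with Col4a1 on the minus and Col4a2 on the plus strand and their first exons overlapping by 22 bases in GENCODE vM21. The overlap is shown because both starts fall in it; it is RefSeq sequence of GRCm38.p6, chr8:11312805-11312826, plus strand, with CpG dinucleotides in capitals.
Col4a1 and Col4a2 starts: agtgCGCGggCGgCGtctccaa

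The other type IV chains were much lower, and they form the trimers of specialised basement membranes such as those of the kidney. Col4a3, on chromosome 1 head to head with Col4a4 (starts 127 bases apart), had 46 and 26 reads in 2838c3, 91 and 50 in 6419c5 and, in 6499c4, 3 and 4. Col4a4 had 18 and 21 reads in 2838c3, 115 and 67 in 6419c5 and, in 6499c4, 4 and 1. Both were highest in 6419c5 and lowest in 6499c4, at 1.07 to 2.06 FPKM in 6419c5. Their FPKM ratio, Col4a3 to Col4a4, was 2.32 and 1.12 in 2838c3 and 0.718 and 0.677 in 6419c5. In 6499c4, from 1 to 4 reads, it was 0.680 and 3.63. Both lay below the level needed for the main test. In limma-voom, which took genes with a mean of at least 10 reads, 7 of the 21 members, Col4a3 and Col4a4 among them, were below that mean in a line and passed through the lines where they were higher, so no test is given for them here. The vehicle ratio of 6499c4 to 6419c5 was 0.0257 for Col4a3 (95% counting interval 0.00521 to 0.0776) and 0.0271 for Col4a4 (0.00727 to 0.0714). Part of a Col4a3 exon (289 bases) overlaps a transcript on the opposite strand in GENCODE vM21, and no source used here states how strand was counted.

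Col4a5, on the X chromosome, was at 0.720 and 0.849 FPKM in 2838c3, 1.66 and 2.52 in 6419c5 and, in 6499c4, 1.19 and 1.10. The 3 lines did not overlap, and 6419c5 was highest (0.78 above 2838c3 on the log2 scale, without a test as 2838c3 was below 1 FPKM). That difference was 0.81 without 2838c3 vehicle, 0.75 without 2838c3 G-1, 0.59 without 6419c5 G-1 and 0.55 under quantile normalization. Over all alternative runs it ranged from 0.55 to 1.37, the highest with limma-voom. Col4a6, whose start lies 1309 bases away on the other strand, had 1 read in each of 2 libraries and none in the others.

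Col18a1, a multiplexin of basement membranes whose end fragment is endostatin, was the third collagen above 10 FPKM. It was at 37.5 and 41.5 FPKM in 2838c3, 23.3 and 22.4 in 6419c5 and, in 6499c4, 41.1 and 39.9. The 6419c5 libraries were the lowest, and the other lines overlapped. Col18a1 was lower in 6419c5 than in 2838c3 (-0.77, SE 0.09, adjusted p = 0.00036) and higher in 6499c4 than in 6419c5 (0.80, adjusted p = 0.000335), while 6499c4 and 2838c3 differed by 0.03 (95% interval -0.17 to 0.24). Its share of the summed collagen FPKM was 15.3 and 17.4% in 2838c3, 11.7 and 11.8% in 6419c5 and, in 6499c4, 27.8 and 24.1%. The Col4a1 and Col4a2 chains together made up 65.9 to 79.5% of that sum. Col15a1, the other multiplexin, had at most 10 reads in a library and none in 6499c4.

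The fibrillar chains made up 2.91 to 4.54% of the summed collagen FPKM. Col1a1, the main chain of type I collagen, had 4 and 3 reads in 2838c3, 30 and 23 in 6419c5 and, in 6499c4, 22 and 23, at most 0.899 FPKM. Its partner Col1a2 had 0 reads in all 6 libraries, which allows up to 0.0614 to 0.103 FPKM at 3 reads per library. Col3a1, the type III chain, had at most 9 reads in a library and none in 2838c3. In vehicle the ratio of Col1a1 to its 2838c3 level was 8.98 in 6419c5 (95% counting interval 3.17 to 35.1) and 5.14 in 6499c4 (1.75 to 20.5), given without a test as for Col4a3.

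Col27a1 and Col5a1 were the fibrillar chains with a mean above 1 FPKM. Col27a1, a chain first known from cartilage, was at 7.56 and 5.89 FPKM in 2838c3, 6.25 and 4.45 in 6419c5 and, in 6499c4, 3.20 and 3.27. It was lower in 6499c4 than in 2838c3 (-0.86, SE 0.15, adjusted p = 0.00236) and than in 6419c5 (-0.57, adjusted p = 0.019), and the values of 2838c3 and 6419c5 overlapped. The second call was lost without either 6419c5 library (-0.44 without vehicle and -0.70 without G-1), without 6499c4 vehicle (-0.38) and with no filter on level. Within each treatment 6419c5 was lower than 2838c3. The limma difference was -0.29 (adjusted p = 0.148), and limma-voom called it (-0.32, adjusted p = 0.0277). Col5a1, which regulates fibril diameter, was at 3.38 and 2.51 FPKM in 2838c3, 0.900 and 0.568 in 6419c5 and, in 6499c4, 0.754 and 0.846. The 2838c3 libraries stood above the others, which overlapped. Col5a1 was lower than in 2838c3 with a difference of -1.18 in 6419c5 and -1.12 in 6499c4, without a test as these lines were below 1 FPKM. Exons of Col5a1 overlap transcripts on the opposite strand by up to 113 bases. Its partner Col5a2 had at most 3 reads in a library.

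Type VI collagen forms beaded filaments near cell surfaces, and none of its chains had more than 2 reads in a 6499c4 library. Col6a1 had 134 and 114 reads in 2838c3 (3.94 and 3.36 FPKM), 64 and 50 in 6419c5 (2.25 and 2.31 FPKM) and, in 6499c4, 2 and 1 (0.0549 and 0.0314 FPKM). Col6a2 had 32 and 36 reads in 2838c3, 19 and 6 in 6419c5 and, in 6499c4, 0 and 2. The third chain of the trimer, Col6a3, had at most 1 read in any library. The vehicle ratio of Col6a1 between 6499c4 and 2838c3 was 0.0140 (95% counting interval 0.00167 to 0.0514) and the G-1 ratio 0.00934 (0.000234 to 0.0531). On the log2(FPKM + 1) scale Col6a1 was lower in 6499c4 than in 2838c3 with a difference of -2.15 and than in 6419c5 with a difference of -1.65. No test is given for these, as Col6a1 passed the level filter through the other lines. The difference of 6419c5 from 2838c3 was -0.50 (adjusted p = 0.0437), a call lost without any 1 of their 4 libraries (-0.41 to -0.59) and with a pseudocount of 0.1 FPKM.

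Col8a1, a short-chain collagen that forms networks under endothelia and around vessels, had the reverse order of levels. It had 4 and 3 reads in 2838c3 (0.0915 and 0.0688 FPKM), 60 and 28 in 6419c5 (1.64 and 1.01 FPKM) and, in 6499c4, 104 and 87 (2.22 and 2.12 FPKM). The 3 lines did not overlap. Col8a1 was higher than in 2838c3 by 1.09 in 6419c5 and by 1.55 in 6499c4, without a test as 2838c3 was below 1 FPKM. It differed by 0.46 between 6499c4 and 6419c5 (95% interval 0.0008 to 0.92, adjusted p = 0.0932), a difference called with no variance trend and with limma-voom. Its upstream sequence is shown as that of the tested collagen furthest above its 2838c3 level, with CpG dinucleotides in capitals (RefSeq, GRCm38.p6, chr16:57754738-57754987, minus strand).
Col8a1: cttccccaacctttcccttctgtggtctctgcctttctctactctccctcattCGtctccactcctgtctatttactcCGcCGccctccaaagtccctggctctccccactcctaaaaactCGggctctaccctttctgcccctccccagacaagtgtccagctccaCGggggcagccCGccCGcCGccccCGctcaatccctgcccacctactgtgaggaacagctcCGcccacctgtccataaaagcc

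Other collagens stayed low in every line. Col12a1, a fibril-associated chain, had 95 and 55 reads in 2838c3 (0.947 and 0.550 FPKM) and 2 or 3 reads in each library of the other lines. The vehicle ratio to 2838c3 was 0.0378 in 6419c5 (95% counting interval 0.00767 to 0.114) and 0.0197 in 6499c4 (0.00235 to 0.0731), again without a test. Col7a1, the chain of the anchoring fibrils under squamous epithelia, was at 0.271 to 0.654 FPKM, with the 2838c3 values inside the range of 6419c5. Col17a1, the hemidesmosomal collagen, was at 0.0846 to 0.227 FPKM, and its lines overlapped.

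Among laminin alpha chains only Lama5 was abundant. Lama5, the alpha chain of adult epithelial laminins, was at 46.1 and 44.5 FPKM in 2838c3, 28.6 and 28.5 in 6419c5 and, in 6499c4, 29.7 and 30.1. The 2838c3 libraries stood above the others, and 6499c4 lay just above 6419c5. Lama5 was lower than in 2838c3 with a difference of -0.65 in 6419c5 (SE 0.08, adjusted p = 0.000446) and with a difference of -0.58 in 6499c4 (adjusted p = 0.000574), and 6499c4 and 6419c5 differed by 0.06 (95% interval -0.12 to 0.24). It made up 93.9 to 99.8% of the summed laminin alpha FPKM. Lama1, Lama2 and Lama4 had 1 read each in all 6 libraries together.

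Lama3, an alpha chain of laminins that anchor epithelia, had 10 and 15 reads in 2838c3 (0.113 and 0.170 FPKM), 86 and 104 in 6419c5 (1.16 and 1.85 FPKM) and, in 6499c4, 82 and 85 (0.866 and 1.03 FPKM). The 3 lines did not overlap. In vehicle the ratio to 2838c3 was 10.3 in 6419c5 (95% counting interval 5.34 to 22.2) and 7.66 in 6499c4 (3.96 to 16.6). Its mean was below the level of the main test, and with limma-voom the differences from 2838c3 were 3.35 (SE 0.39, adjusted p = 2.35e-09) and 2.70 (SE 0.39, adjusted p = 1.97e-07), where 28.6% and 29.6% of all genes were called higher with limma-voom. The gene length behind the Lama3 values (10371 bases) is that of its long transcript, and FPKM of a shorter form would be understated. An exon of Lama3 overlaps an antisense transcript by 197 bases.

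The beta chains differed in which line held the least. Lamb3, a beta chain of laminins that anchor epithelia, was at 63.1 and 67.8 FPKM in 2838c3, 72.7 and 63.0 in 6419c5 and, in 6499c4, 18.4 and 17.0. The 6499c4 libraries lay far below the others, which overlapped. Lamb3 was lower in 6499c4 than in 2838c3 with a difference of -1.83 (SE 0.09, adjusted p = 7.64e-06) and than in 6419c5 with a difference of -1.88 (adjusted p = 1.12e-05), and 6419c5 and 2838c3 differed by 0.05 (95% interval -0.17 to 0.27). Lamb1, a beta chain with wide tissue distribution, was at 38.6 and 36.8 FPKM in 2838c3, 28.5 and 23.9 in 6419c5 and, in 6499c4, 42.9 and 37.4. Here the 6419c5 libraries were the lowest and the other lines overlapped. Lamb1 was lower in 6419c5 than in 2838c3 with a difference of -0.51 (SE 0.08, adjusted p = 0.00184) and higher in 6499c4 than in 6419c5 by 0.60 (adjusted p = 0.00107). Lamb2, the beta chain known from neuromuscular junctions and glomeruli, was at 23.6 and 27.8 FPKM in 2838c3, 18.7 and 17.3 in 6419c5 and, in 6499c4, 12.3 and 14.6. The lines did not overlap, and 6499c4 was the lowest. Lamb2 differed from 2838c3 by -0.89 in 6499c4 (SE 0.11, adjusted p = 0.000473) and by -0.49 in 6419c5 (adjusted p = 0.00894), the latter not called without 2838c3 G-1 (-0.41) or 6419c5 G-1 (-0.32). Between 6499c4 and 6419c5 it differed by -0.40 (adjusted p = 0.0234), a call lost without 6419c5 vehicle (-0.23), without 6499c4 vehicle (-0.31) and with no filter on level.

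Lamc1, the common gamma chain, was at 64.2 and 60.7 FPKM in 2838c3, 54.8 and 53.3 in 6419c5 and, in 6499c4, 42.0 and 42.1. Levels were highest in 2838c3 and lowest in 6499c4, without overlap. Lamc1 was lower in 6499c4 than in 2838c3 with a difference of -0.56 (SE 0.07, adjusted p = 0.000533) and than in 6419c5 with a difference of -0.35 (adjusted p = 0.00645, not called without 6419c5 G-1, -0.35). The difference of 6419c5 from 2838c3 was -0.20 (adjusted p = 0.0475), a call lost without any 1 of the 6 libraries (-0.17 to -0.24), with no variance trend and with no treatment term. Lamc3 had at most 11 reads in a library and none in 6499c4.

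Ratios of the FPKM values of 2 laminin chains were taken in each library, without a test. The ratio of Lamb3 to Lama3 was 558 and 399 in 2838c3, 62.5 and 34.1 in 6419c5 and, in 6499c4, 21.3 and 16.6. The ratio of Lamb3 to Lamb1 was 1.63 and 1.84 in 2838c3, 2.55 and 2.63 in 6419c5 and, in 6499c4, 0.429 and 0.456, so Lamb1 was above Lamb3 only in 6499c4. The ratio of Lamb1 to Lamb2 was 1.63 and 1.32 in 2838c3, 1.52 and 1.38 in 6419c5 and, in 6499c4, 3.48 and 2.56. The ratio of Lama5 to Lamc1 was 0.718 and 0.734 in 2838c3, 0.522 and 0.534 in 6419c5 and, in 6499c4, 0.706 and 0.714. Summed laminin FPKM was 1.15 to 1.56 times summed collagen FPKM.

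**Figure D3:**
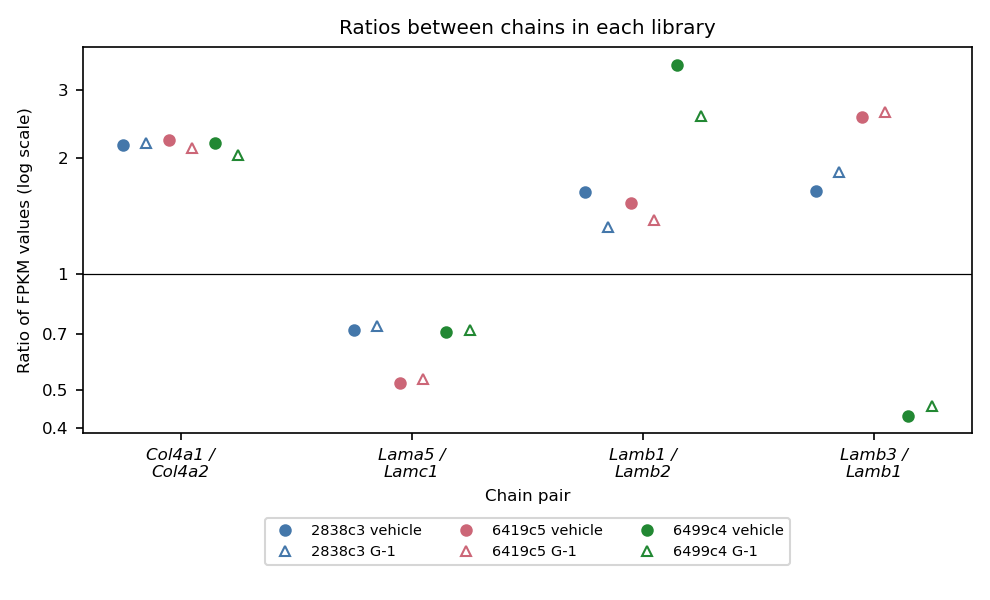
Ratio of the FPKM values of 2 chains on a log axis for 4 chain pairs, by line (colour) and treatment (filled circles vehicle, open triangles G-1); each point is 1 library. Col4a1 to Col4a2 stays within 2.03 to 2.22, while Lamb3 to Lamb1 runs from 0.429 in 6499c4 to 2.63 in 6419c5.

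Sequence before the starts was compared for the members in the RefSeq promoter table (GRCm38.p6, 250 bases before each start). Of the 14 tested members 12 had an entry, and Lamc1 was among those without. Lama5 and Lamb3 are shown as an abundant chain with similar levels in 6419c5 and 6499c4 and as the laminin chain with the widest difference between lines among those with a mean of at least 1 FPKM, with CpG dinucleotides in capitals. The Lama5 sequence is chr2:180225860-180226109, minus strand, with 19 CpG, and the Lamb3 sequence is chr1:193301744-193301992, plus strand, with 2 CpG and 1 exonic base before the start left off.
Lama5: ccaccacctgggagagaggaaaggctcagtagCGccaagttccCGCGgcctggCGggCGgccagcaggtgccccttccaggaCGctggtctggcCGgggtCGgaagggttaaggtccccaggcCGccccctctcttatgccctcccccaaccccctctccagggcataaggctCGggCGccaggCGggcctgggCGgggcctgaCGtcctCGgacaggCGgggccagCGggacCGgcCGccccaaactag
Lamb3: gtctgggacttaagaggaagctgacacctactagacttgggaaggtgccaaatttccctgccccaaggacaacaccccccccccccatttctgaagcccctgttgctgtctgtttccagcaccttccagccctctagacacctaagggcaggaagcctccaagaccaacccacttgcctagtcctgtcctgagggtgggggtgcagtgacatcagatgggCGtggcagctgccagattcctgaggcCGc
Over the 250 bases, the median CpG count was 12 for the 12 tested members with an entry (2.5, the mean of both Lamb3 starts, to 31 for Col4a1), 7 for the 17 with an entry among the 28 members above 0 with a mean under 1 FPKM, 10 for the 11 with an entry among members at 0 in all libraries, and 6 for all genes. Col8a1 had 10. Matches were counted on both strands for 4 motifs, none of which contains another. The GC box GGGCGG was present before 8 of the 12 members, with 4 matches each before Lama5 and Col8a1, and in 32.7% of all promoter windows. CCAAT was present before 5 of the 12 (33.8% of all windows), the AP-1 motif TGANTCA before 1, Col6a1 (6.75%), and TATAAA before none (12.4%). A member was counted if any of its windows matched, while the shares are of single windows. Col18a1 and Lamb3 have more than 1 window each.

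G-1 against vehicle was tested with cell line as block. None of the 14 tested collagen and laminin genes was called, and 0.0279% of all genes tested were (3 of 10748). At an unadjusted p under 0.05 there was 1 member, Lamb1, against 1081 of all genes, and limma-voom called 0 of 21 members and 1.54% of all genes. The median difference of the 14 was -0.05 on the log2 scale, and that of all genes -0.01. Lower under G-1 in all 3 lines were 3 of the 14, Col8a1 and Lamb1 among them, where 17.5% of all genes were, and 0 of the 14 were higher in all 3 lines, where 15.4% of all genes were. For the 9 abundant members the 95% intervals of the difference lay between -0.32 and 0.33, which does not show that G-1 left them unchanged.

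Within a line, G-1 and vehicle can be compared only as 1 library against another. The 95% counting interval of the ratio excluded 1 for 11 of 33 members with reads in 2838c3 (4 above 1 and 7 below), 8 of 39 in 6419c5 (3 and 5) and 5 of 31 in 6499c4 (3 and 2). Over all genes with reads, it lay above 1 for 10.2% and below for 14.6% in 2838c3, 6.39% and 7.11% in 6419c5 and, in 6499c4, 15.4% and 14.7%. These intervals cover counting error only and leave out the spread between cultures. Lamb1 was at 0.954 times its vehicle level in 2838c3, 0.841 times in 6419c5 and 0.872 times in 6499c4, with intervals of 0.895 to 1.02, 0.766 to 0.922 and 0.818 to 0.928. Its limma difference was -0.17 (SE 0.07, adjusted p = 0.477). Col27a1 was at 0.78 (0.680 to 0.892), 0.712 (0.592 to 0.854) and 1.02 (0.838 to 1.24) times vehicle, and its difference of -0.23 had an adjusted p of 0.558. Lama3 was at 1.50 (0.632 to 3.74), 1.59 (1.18 to 2.14) and 1.18 (0.864 to 1.62) times vehicle, with an adjusted p of 0.298 in limma-voom.

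The lines did not share 1 direction for the type IV chains Col4a1 and Col4a2. In 6499c4, Col4a1 was at 1.17 times vehicle (1.12 to 1.22) and Col4a2 at 1.26 times (1.18 to 1.34), while in 2838c3 they were at 0.966 (0.934 to 0.998) and 0.953 (0.908 to 1.00) times and in 6419c5 at 0.954 (0.914 to 0.996) and 1.00 (0.938 to 1.07) times. Of the lower type IV chains, Col4a3 was at 0.567 times vehicle in 2838c3 (0.336 to 0.936) and Col4a5 at 1.517 times in 6419c5 (1.105 to 2.085). Their intervals in the other lines included 1. Lamb2 was at 1.18 (1.09 to 1.27), 0.928 (0.829 to 1.04) and 1.19 (1.06 to 1.33) times vehicle. Col18a1 was above vehicle in 2838c3 (1.11, 1.04 to 1.18) and at 0.962 and 0.970 times in 6419c5 and 6499c4. With 1 library per line and treatment, these differences between lines were not tested.

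**Figure D4:**
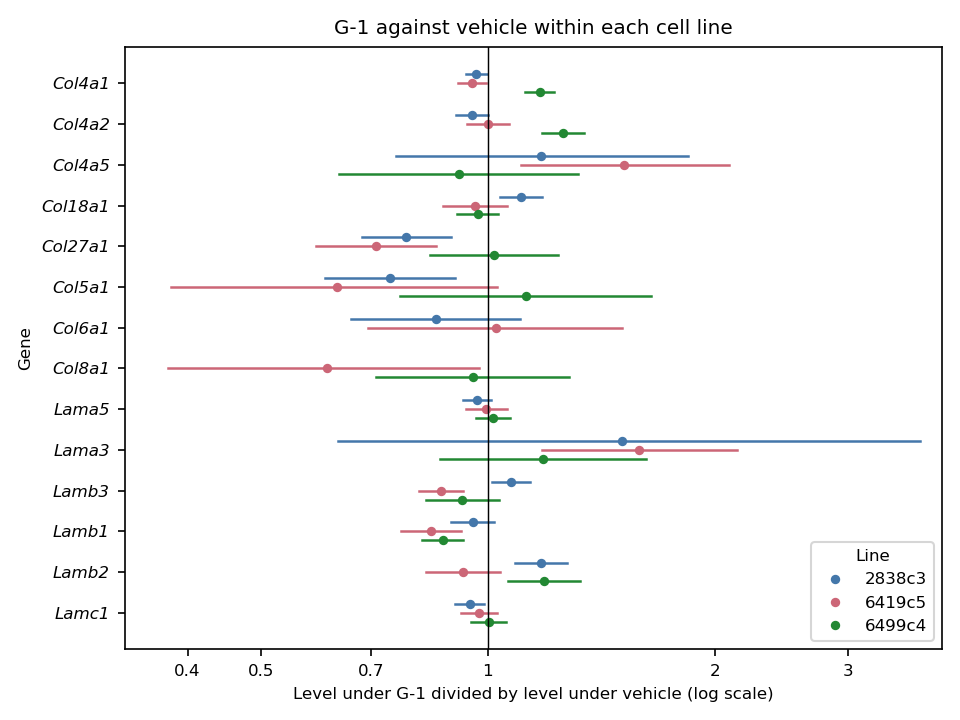
Level under G-1 divided by the level under vehicle, on a log axis, for 13 of the 14 tested members and Lama3 in each line (colour), with 95% counting intervals as bars; ratios from fewer than 10 reads in either library are left out. Col4a1 and Col4a2 lie right of 1 in 6499c4 (1.17 and 1.26), and Lamb1 lies left of 1 in all 3 lines (0.841 to 0.954).

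Genes that act on these chains were read from 4 lists of modification, cleavage, matrix partner and receptor genes. None was called under G-1 among 16, 7, 9 and 10 tested (0.0279% of all genes were), with 1, 1, 3 and 3 at an unadjusted p under 0.05 (1081 of all 10748 genes) and list medians of -0.08, -0.06, -0.11 and -0.10. Against 2838c3, 6419c5 was higher for 6 and lower for 4 of the 16, for 3 and 4 of the 7, for 5 and 2 of the 9 and for 1 and 2 of the 10, where 26.2% and 25.3% of all genes were. Against 2838c3, 6499c4 was higher for 2 and lower for 10, for 3 and 4, for 1 and 6 and for 0 and 9 in the same order of lists, where 26.6% and 28.9% of all genes were. Against 6419c5, 6499c4 was higher for 4 and lower for 10, for 1 and 3, for 1 and 7 and for 0 and 8, where 21.3% and 23.7% of all genes were. The naming rule took 47 of these calls, of which 44 held in every alternative run, and the calls given below are among the 44. Some list genes, Itga7, Smoc1 and Loxl3 among them, were below 1 FPKM in a line and passed through lines where they were higher. The list counts are therefore descriptions.

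The modification and folding genes had medians of 0.03, -0.49 and -0.40 in these 3 comparisons. P4hb, Ppib and Colgalt1 had the highest means (470, 236 and 162 FPKM). Serpinh1, the collagen chaperone HSP47, was at 94.8 and 101.7 FPKM in 2838c3, 19.0 and 15.0 in 6419c5 and, in 6499c4, 49.4 and 47.9, without overlap. It was lower in 6419c5 than in 2838c3 with a difference of -2.47 (adjusted p = 6.07e-06) and higher in 6499c4 than in 6419c5 by 1.48 (adjusted p = 5.79e-05). P4ha2, a subunit of prolyl 4-hydroxylase, was higher than in 2838c3 by 1.18 in 6419c5 and 1.71 in 6499c4, and the lysyl hydroxylases Plod1 and Plod2 were lower in 6499c4 than in 2838c3 with a difference of -1.39 and -1.02.

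The procollagen cleavage and crosslinking genes had medians of -0.78, -0.54 and -0.19. Bmp1, which removes the C-propeptide, was lower than in 2838c3 with a difference of -1.58 in 6419c5 and with a difference of -1.50 in 6499c4, and Pcolce, its enhancer, was higher by 1.25 and 1.06. The lysyl oxidase family member Loxl4 was lower in 6499c4 than in 2838c3 with a difference of -1.88 (adjusted p = 8.27e-06). Lox itself had at most 4 reads in a library, and Loxl1 had none.

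The matrix partners had medians of 0.27, -0.68 and -0.82. Nid1, which links laminin to type IV collagen, was at 51.0 and 42.0 FPKM in 2838c3, 57.7 and 52.8 in 6419c5 and, in 6499c4, 17.0 and 13.3. It was lower in 6499c4 than in 6419c5 with a difference of -1.81 (adjusted p = 9.15e-06). Agrn, a basement membrane proteoglycan, was lower than in 2838c3 with a difference of -1.04 in 6419c5 and -1.85 in 6499c4. Sparc, a collagen-binding protein, was at 27.4 and 27.8 FPKM in 2838c3, 105.7 and 93.3 in 6419c5 and, in 6499c4, 3.39 and 1.42. It was lower in 6499c4 than in 6419c5 with a difference of -4.94 (adjusted p = 3.47e-06).

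The receptors had medians of -0.09, -0.80 and -0.67. Itgb1, the beta subunit shared by the collagen-binding and many laminin-binding integrins, was at 426 and 390 FPKM in 2838c3, 368 and 358 in 6419c5 and, in 6499c4, 187 and 175. It was lower in 6499c4 than in 2838c3 with a difference of -1.17 (adjusted p = 1.31e-05). Itga7, a laminin-binding subunit, had 136 and 171 reads in 2838c3, 97 and 85 in 6419c5 and, in 6499c4, 5 and 0. Itgb4, the hemidesmosomal partner of Itga6, was higher in 6419c5 than in 2838c3 by 0.59 (adjusted p = 0.00159) and lower in 6499c4 than in 6419c5 with a difference of -1.08 (adjusted p = 0.000121).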

How the data were processed

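RNA-seq was made from 6 libraries (3 lines, vehicle or G-1, 1 library each). The values deposited by the authors are FPKM per gene symbol. The submitters' processing notes name STAR and DESeq2 without saying what each did; no source used here gives the build, annotation or strand rule. Each gene's values were whole multiples of a step (15712 of 15712 genes, within 0.01 reads), which gave whole reads. A gene with a value in only 1 library passes in any case, so that count does not check the reads of low genes. For 4 low members, Col2a1, Col3a1, Col11a1 and Col15a1, the reads were multiplied by 2 or 3 to match the transcript length. Their read counts, such as those given for Col3a1 and Col15a1, rest on that length.

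Line and treatment effects were fitted in limma 3.58.1 (R 4.3.3) on log2(FPKM + 1), which understates the change of low genes, for genes whose mean reached 1 FPKM, with a variance trend, 2 residual and 5.35 prior degrees of freedom, two-sided, and Benjamini-Hochberg adjustment over all 10748 genes (threshold 0.05). The line pairs the libraries; correlations within lines were 0.906, 0.871 and 0.882. Limma-voom on reads took genes with a mean of at least 10 reads and leans more on variances pooled over genes. Read ratios have exact 95% binomial intervals. The fit on log2(FPKM + 1) was run on simulated data with independent normal noise, which does not show how it behaves for genes with few reads. A member and a marker gene are not reported here and stayed in every fit and count; the other 13 tested members get every value; pathway genes were named by largest difference and highest mean. Members, lists and rules were chosen with earlier results of these data known. Lox, Loxl1 and the upstream sequences shown were named after their values were seen.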

Additional observations from a re-analysis of the deposited data

Results flagged for a closer look

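Under G-1, Col4a1 moved in opposite directions between lines, with counting intervals of the ratio to vehicle that excluded 1 in each: 0.966 in 2838c3, 0.954 in 6419c5 and 1.17 in 6499c4. Lamb3 was at 1.07 times vehicle in 2838c3 and 0.866 times in 6419c5, with intervals that excluded 1, and at 0.926 times in 6499c4, with one that did not. The differences between lines were not tested, since each ratio rests on 1 library per treatment.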

How the results depend on the processing

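Under G-1, the count of called members stayed at 0 in all alternatives run, including the fit with no replicate block (0) and the fits without each line, while the count over all genes went from 3 to 173 with limma-voom, 6 at a mean of at least 5 FPKM, 1 with a pseudocount of 0.1 FPKM, 0 with no filter, no variance trend or no replicate block, and 0 to 11 without a line. For 6419c5 against 2838c3 the 11 called members became 19 with limma-voom (21 tested, with 6320 of 11258 genes called) and fewer without some single libraries. For 6499c4 against 2838c3 the 11 became 17 with no filter (42 tested) and 17 with limma-voom (5769 of 15712 and 6927 of 11258 genes called), and fewer without some single libraries. For 6499c4 against 6419c5 the 10 became 16 with limma-voom (5713 of 11258) and fewer without some single libraries. In limma-voom 7 of the 21 members were below a mean of 10 reads in a line, so its counts are descriptions. So are those with no filter. Among single genes, those whose sign changed were not called in the reported fit. Without single lines, the G-1 differences ranged from -0.048 to 0.050 for Col18a1, -0.059 to 0.087 for Col4a1, -0.034 to 0.16 for Col4a2 and -0.027 to 0.0070 for Lama5 on the log2 scale. Without single libraries, Lamb3 ranged from -0.079 to 0.18 (6419c5 against 2838c3), Col18a1 from -0.061 to 0.13 (6499c4 against 2838c3) and Col5a1 from -0.13 to 0.25 (6499c4 against 6419c5). Col4a5 was at -0.019 under quantile normalization (6499c4 against 2838c3). The cause was not tested, beyond the number of genes tested given above. Leaving out a library leaves a line with 1, which is then assumed to vary like the others. Genes with few reads, such as Col6a1 in 6499c4, are limited by depth.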
